A study of Mus musculus with 8 samples.

Results

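Complex I (NADH:ubiquinone oxidoreductase) is the entry enzyme of the mitochondrial respiratory chain, and 36 genes named as its nuclear-encoded subunits were followed in kidneys of homozygous Pus1 mutant mice and of wild types. The members were chosen by symbol, as subunit genes with at least 1 probe well above background in at least 4 of the 8 array channels, and each gene was read from its brightest such probe. 1 of them, Ndufa4, is now counted with cytochrome c oxidase and is kept in every count over the 36. They are 36 of 22122 tested items, 14284 of which carry a gene symbol. Each of the 36 was well above background in all 8 channels, and none was saturated in any channel. The mitochondrially encoded subunits and Ndufb1 are not analysed here.

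Complex I takes electrons from NADH and passes them through a flavin and a chain of iron-sulfur clusters to ubiquinone, and it couples this transfer to proton pumping across the inner mitochondrial membrane. Its peripheral arm, which reaches into the matrix, holds the core subunits that carry the flavin and the clusters. Its membrane arm holds the mitochondrially encoded proton-pumping core. Accessory subunits surround both arms and are needed to build or hold the enzyme. In the kidney, proximal tubule and thick ascending limb cells are rich in mitochondria and draw on respiration for the reabsorption of salt. Pus1 encodes pseudouridine synthase 1, which makes pseudouridine in transfer RNAs of the cytosol and of mitochondria.

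The mice were 4 homozygous Pus1 mutants and 4 wild types of 14 to 16 weeks, and both groups had 5 generations of backcrossing to C57BL/6J. The series title calls the mutants knockouts, but the labels do not say what was removed from the gene or in which cells. RNA came from frozen cross sections through the whole kidney. Each of 4 dual-channel Agilent arrays paired a mutant with a wild type of its own sex, male on arrays 3 and 4 and female on arrays 1 and 2. Cy5 marked the mutant on arrays 1 and 3, while on arrays 2 and 4 it was marked by Cy3. All 4 arrays lie on 1 slide, with the sexes at different positions, so sex and position on the slide cannot be told apart. Pus1 itself had log2 ratios of mutant over wild type of −2.93, −2.85, −3.09 and −2.98 on arrays 1 to 4, which matched the labels, although it is not known whether its probe lies in the altered part. The kidney markers Slc34a1 (proximal tubule), Umod (thick ascending limb) and Aqp2 (collecting duct) were well above background in all 8 channels. In a sample 26919 to 30529 of 55681 probes were well above background, and normalized log2 intensities correlated between samples by 0.990 to 0.995 within a sex and by 0.955 to 0.969 between the sexes, across genes. With 4 arrays, 2 of them per sex, precision was limited by their number.

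Promoter sequence is shown for 4 members on which the results turn: Ndufs8, Ndufb11 and Ndufa11 had the largest differences between the sexes, and Ndufab1 had the largest difference between the genotypes. Each run is the 250 bases before the gene's start in RefSeq's annotation of GRCm38.p6, 5′ to 3′ on the gene's strand. Ndufs8 lies at chr19:3912775-3913024 (minus strand), Ndufb11 at chrX:20617620-20617869 (minus strand), Ndufa11 at chr17:56717512-56717761 (plus strand) and Ndufab1 at chr7:122101849-122102098 (minus strand). Capitals mark a match to the motif of nuclear respiratory factor 1 (NRF1), a factor known for binding promoters of respiratory chain genes.
Ndufs8: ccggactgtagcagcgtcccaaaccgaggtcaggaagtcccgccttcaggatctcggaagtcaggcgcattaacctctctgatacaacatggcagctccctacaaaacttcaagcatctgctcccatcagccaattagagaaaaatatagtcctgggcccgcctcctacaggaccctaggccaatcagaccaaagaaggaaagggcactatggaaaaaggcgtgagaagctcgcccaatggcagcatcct
Ndufb11: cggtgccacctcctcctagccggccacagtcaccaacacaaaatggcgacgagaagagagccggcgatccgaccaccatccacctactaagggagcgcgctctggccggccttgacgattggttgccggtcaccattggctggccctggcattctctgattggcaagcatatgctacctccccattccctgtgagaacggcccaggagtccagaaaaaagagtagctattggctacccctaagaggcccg
Ndufa11: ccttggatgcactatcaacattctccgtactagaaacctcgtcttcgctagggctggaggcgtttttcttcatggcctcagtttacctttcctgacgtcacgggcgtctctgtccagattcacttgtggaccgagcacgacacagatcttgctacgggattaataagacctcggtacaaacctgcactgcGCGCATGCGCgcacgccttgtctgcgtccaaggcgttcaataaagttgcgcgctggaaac
Ndufab1: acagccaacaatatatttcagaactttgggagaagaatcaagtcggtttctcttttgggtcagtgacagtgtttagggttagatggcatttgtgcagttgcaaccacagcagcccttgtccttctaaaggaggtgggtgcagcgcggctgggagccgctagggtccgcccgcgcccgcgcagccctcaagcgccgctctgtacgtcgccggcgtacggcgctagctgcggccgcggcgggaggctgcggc

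Of the 36 members 33 had such a window, and 4 short motifs were searched in it on both strands. The NRF1 motif, GCGCA and GCGC with 1 free base (N) between them, was found in 6 of 33 members (18.2%), against 4.23% of 27025 genes. Those members were Ndufa5, Ndufa8, Ndufa11, Ndufb4, Ndufs5 and Ndufs6. In Ndufa11 it lies 60 to 51 bases before the start and is its own reverse complement. AAGGTCA, the half-site of the oestrogen-related receptors, was found in 3 of 33 members (9.09%), namely Ndufb2, Ndufb4 and Ndufs5, against 4.70% of genes. CCGGAAG, the motif of GA-binding protein, was found in 3 of 33 members (9.09%), namely Ndufb6, Ndufb7 and Ndufs3, against 7.83% of genes. AAGATGGC, the motif of YY1, was found in 0 of 33 members and in 1.83% of genes. No motif contains another. The median GC content was 57.6% in the members' windows and 52.4% in all 32851 windows, and the NRF1 motif is rich in G and C. A match describes these letters and is no evidence that a factor binds there.

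The first question was whether complex I transcripts differed between mutant and wild-type kidneys. In the mutants, 33 of the 36 members were higher and 3 were lower (Ndufa6, Ndufa12 and Ndufb7), all by small amounts, although with median instead of loess normalization the split was 23 higher and 13 lower. The log2 ratio of mutant over wild type ran from −0.02 for Ndufa12 to 0.24 for Ndufab1, with a median of 0.07, against a median of 0.00 over all items, of which 48.0% were higher in mutants. None of the 36 passed an adjusted p of 0.05 in the limma fit, where 0.0271% of all items did. The smallest adjusted p among the members was 0.980. At an unadjusted p under 0.05 there were 6 members, all higher in mutants, where 2.58% of all items were higher and 1.89% lower at that p. The 95% interval of every member lay inside a 1.5-fold difference either way: the highest upper bound was 1.34-fold (Ndufab1) and the lowest lower bound 0.863-fold (Ndufa12). Standard errors of the members ran from 0.0693 to 0.0905 on the log2 scale (n = 4 arrays).

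**Figure D1:**
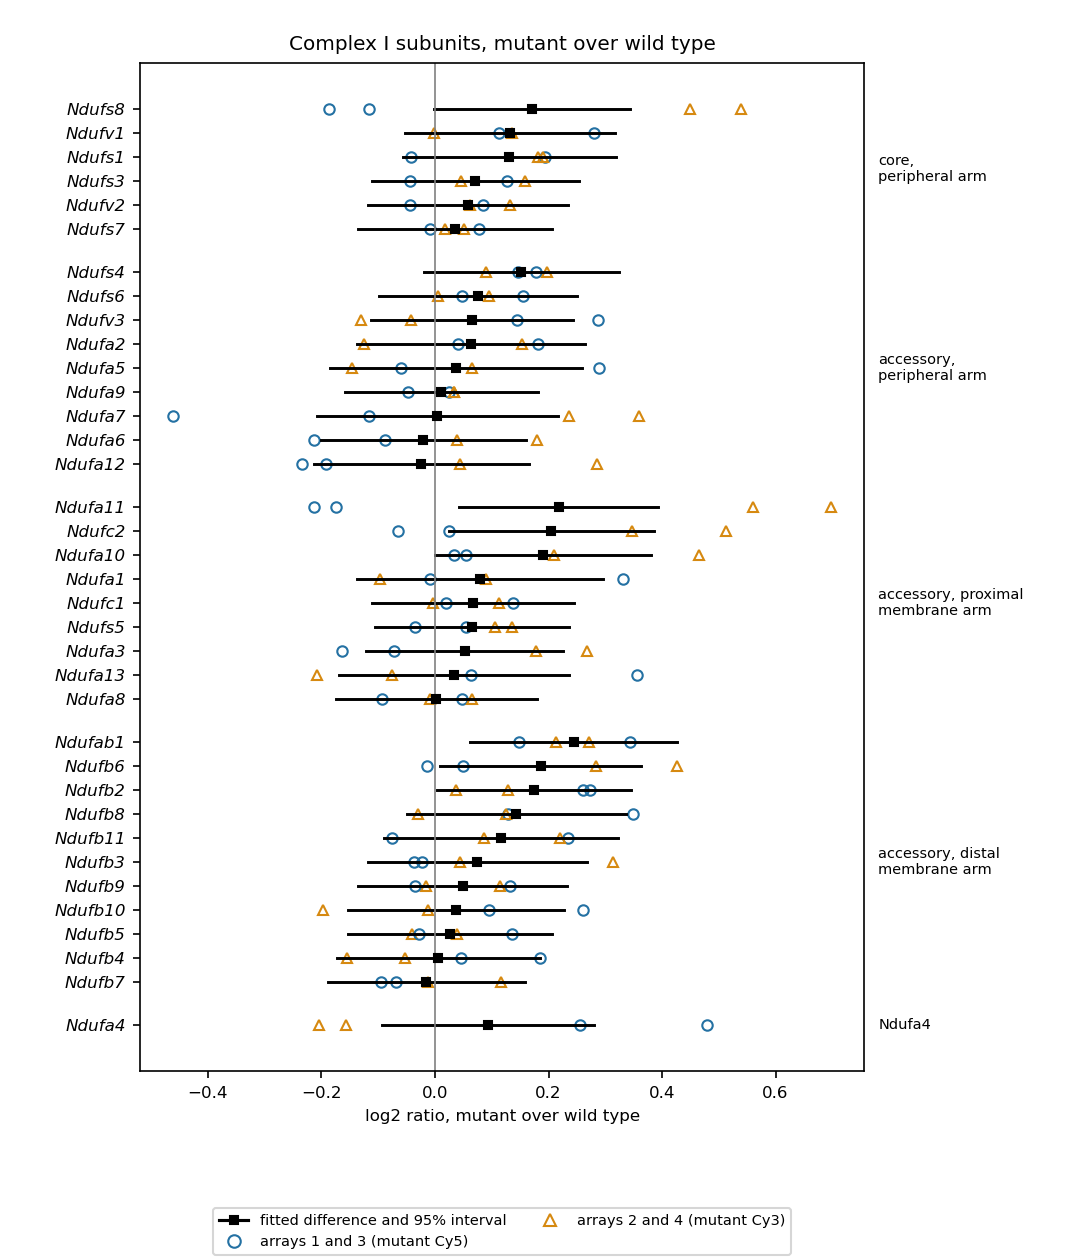
Log2 ratio of mutant over wild type (x axis) for the 36 members (y axis), grouped by place in the complex and ordered within each group by the fitted difference. Open symbols are single arrays by dye orientation, and black squares with bars are the fitted differences with 95% intervals. The fitted differences lie between −0.02 and 0.24, 30 of the 36 intervals hold 0, and for members such as Ndufa11 and Ndufs8 the circles and triangles fall on opposite sides of 0. With median normalization 10 of the fitted differences change sign.

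In the core of the peripheral arm all 6 measured members had fitted ratios above 0 (5 with median normalization, where Ndufs7 was below 0), with a median of 0.10, and none passed the test. Ndufs8, which carries iron-sulfur clusters near the quinone end of the chain, had normalized log2 intensities of 13.20, 13.53, 12.35 and 12.79 in mutant replicates 1 to 4. In wild-type replicates 1 to 4 it had 13.32, 12.99, 12.54 and 12.34. The mutant was the lower of its pair on arrays 1 and 3 and the higher on arrays 2 and 4, so the groups overlapped and the fitted ratio was 0.17 ± 0.0704 (SE, n = 4 arrays). Ndufv1, the flavoprotein that binds NADH, had a fitted ratio of 0.13 ± 0.0753. Ndufs1, which carries most of the clusters of the electron-input module, had 0.13 ± 0.0765, with ratios of 0.19, 0.19, −0.04 and 0.18 on arrays 1 to 4. The ratios of Ndufs3 (0.07), Ndufv2 (0.06) and Ndufs7 (0.03), the last of which carries the terminal cluster, were smaller than their standard errors.

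Among the 9 accessory members of the peripheral arm 7 were higher and 2 lower, with a median of 0.04, but with median normalization Ndufa5, Ndufa7 and Ndufa9 also fell below 0. Ndufs4, a subunit at the electron-input end whose loss causes severe complex I deficiency in mice and people, had log2 ratios of 0.18, 0.09, 0.15 and 0.20 on arrays 1 to 4, above 0 on every array. Its fitted ratio was 0.15 ± 0.0704 with a 95% interval of −0.02 to 0.32. Ndufs6, a zinc-binding subunit of the same end, was above 0 on all 4 arrays as well, at 0.15, 0.01, 0.05 and 0.10. Ndufa7, by contrast, had −0.46, 0.36, −0.12 and 0.24, which follow the dye of the mutant sample, and a fitted ratio of 0.00. Ndufa12 and Ndufa6 had ratios of −0.02 each, and they too were below 0 on arrays 1 and 3 and above 0 on arrays 2 and 4. Second probes of Ndufa5 and Ndufv3 gave 0.04 and 0.21, beside 0.04 and 0.06 from the probes used.

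All 9 accessory members of the proximal membrane arm had fitted ratios above 0, from 0.00 for Ndufa8 to 0.22 for Ndufa11, and with median normalization Ndufa8 and Ndufa13 were below 0. Ndufa11, a membrane subunit beside the quinone site, had log2 ratios of −0.17, 0.56, −0.21 and 0.70 on arrays 1 to 4. The signs followed the dye, and the fitted ratio was 0.22 ± 0.0715 (SE, n = 4 arrays, unadjusted p = 0.0228 and adjusted p = 0.980 by limma). Ndufc2 had 0.02, 0.35, −0.07 and 0.51, and a fitted ratio of 0.20 ± 0.0737. Ndufa10, a subunit with a kinase-like fold, was above 0 on all 4 arrays, at 0.05, 0.46, 0.03 and 0.21, and larger where the mutant carried Cy3. Ndufa13, also known as GRIM-19, had 0.36, −0.21, 0.06 and −0.08, the opposite dependence on the dye.

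In the distal membrane arm 10 of 11 members had fitted ratios above 0, with a median of 0.07, but with median normalization Ndufb4, Ndufb5, Ndufb9 and Ndufb10 were below 0. Ndufab1, the mitochondrial acyl carrier protein, which also serves mitochondrial fatty acid synthesis, had normalized log2 intensities of 11.43, 11.38, 11.15 and 11.10 in mutant replicates 1 to 4. It had 11.08, 11.17, 11.00 and 10.83 in wild-type replicates 1 to 4. The mutant was the higher sample of each pair, while the male mutants overlapped the female wild types. The means were 11.27 ± 0.162 in mutants and 11.02 ± 0.144 in wild types (SD, n = 4 each), and the fitted ratio was 0.24 ± 0.0746 (SE), with a 95% interval of 0.06 to 0.43 and an unadjusted p of 0.0171 in the limma fit. Ndufb2 was above 0 on all 4 arrays too, at 0.27, 0.04, 0.26 and 0.13, with a fitted ratio of 0.17 ± 0.0698. Ndufb6 had 0.05, 0.28, −0.01 and 0.43, and its second probe had 0.20, 0.11, 0.03 and 0.15. Ndufb5 had a fitted ratio of 0.03, but its second probe gave 0.23 and was above 0 on all 4 arrays. Second probes of Ndufb4 and Ndufb11 gave 0.02 and 0.15, beside 0.01 and 0.12 from the probes used. With the mean of a gene's probes the distal arm's median was 0.13, and none passed. Ndufa4, once taken for a complex I subunit and now counted with cytochrome c oxidase, had 0.48, −0.16, 0.26 and −0.20 and a fitted ratio of 0.09 ± 0.0760.

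Of the 36 members 5 were higher in the mutant on all 4 arrays (Ndufab1, Ndufb2, Ndufa10, Ndufs4 and Ndufs6), where 4.24% of all items were, and none was lower on all 4, where 3.91% of items were. No member had all mutant samples above all wild-type samples, where 0.398% of items did, or all below, where 0.258% did. On arrays 1 to 4, 27, 21, 15 and 31 of the 36 members were higher in the mutant, with median ratios of 0.13, 0.04, −0.03 and 0.13. Without replicate 1 the members' median ratio was 0.04 and 25 members were higher.

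The ratios of many members followed the dye, as they did for all items. For 20 of the 36 members the 2 orientations were fully separate, as they were for 56.8% of all items. In these, both ratios with the mutant in Cy5 lay above, or both below, the ratios with the mutant in Cy3, whether or not 0 lay between. Averaged by orientation, 19 members had opposite signs, 17 were above 0 in both orientations and none was below 0 in both. The ratios of the 36 members correlated by 0.753 between arrays 1 and 3 and by 0.810 between arrays 2 and 4. Between arrays of opposite orientation they correlated by −0.590 to −0.446; these are across genes and describe the arrays. The dye term was larger than the genotype term for 19 of 36 members, against 15089 of 22122 items, and it passed an adjusted p of 0.05 for none of them, where 2.17% of all items passed. Both orientations are held equally by each sex, so a dye effect of fixed size cancels in the fitted ratio.

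**Figure D2:**
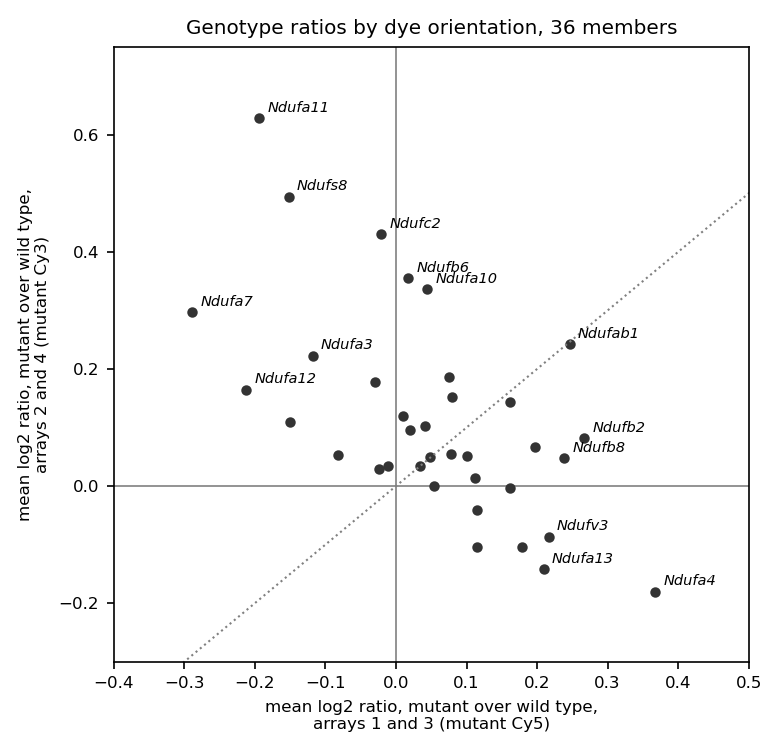
Mean log2 ratio of mutant over wild type on arrays 2 and 4, where the mutant carried Cy3 (y axis), against that on arrays 1 and 3, where it carried Cy5 (x axis), with 1 point per member and a dotted line of equality. Ndufab1 lies on the line with means of 0.24 and 0.25, while Ndufa11, Ndufs8 and Ndufa7 lie to the upper left and Ndufa4 to the lower right.

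Other genes of respiration were measured on the same arrays. In complexes II to V the mutants had the higher level for 36 of 39 measured subunits (31 of 39 with median normalization), the median was 0.10 and none passed. Of 21 measured complex I assembly factors, which build the enzyme and do not stay in it, 13 were higher (12 with median normalization), with a median of 0.07, and none passed. Of 11 regulators of respiratory genes 5 were higher (3 with median normalization), with a median of −0.02, and none passed. The complex I list and these lists share the same mutant and wild-type samples.

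Whole-kidney sections can hold fat and urothelium, and the levels of both moved between the mice. Brown fat is itself rich in complex I, and its markers had median ratios of −0.76, −0.28, 1.13 and 0.54 on arrays 1 to 4 (8 of 9 markers measured), and Ucp1, the uncoupling protein of brown fat, had −1.03, −1.32, 4.50 and 2.03. Summed over the list the log2 level was 15.39 to 16.44 in mutants and 14.53 to 16.32 in wild types. White fat markers had median ratios of −1.83, −1.92, 1.88 and 0.50 (7 of 8 markers) and a summed log2 level of 15.12 to 16.89 in mutants and 14.62 to 18.18 in wild types. Urothelium markers had −1.90, −1.59, 1.62 and −0.06 (7 of 7) and 11.11 to 12.90 in mutants and 10.49 to 13.62 in wild types. Ucp1, Adipoq, Upk1a and Upk3a, the defining markers, were well above background in all 8 channels. Beside these, the complex I median was 0.13, 0.04, −0.03 and 0.13 on the same arrays, and it was lowest on array 3, where Ucp1 was highest. The part of these tissues in the complex I ratios was not tested. Proximal tubule markers summed to 20.02 to 20.48 in mutants and 20.04 to 20.41 in wild types. Markers of the thick ascending limb and distal convoluted tubule, cells that hold many mitochondria, were higher in mutants for 9 of 9 genes, also with median normalization, and none passed. Their median ratio was 0.29, with 0.59, 0.23, 0.20 and 0.19 on arrays 1 to 4, and their summed log2 level was 17.98 to 18.44 in mutants and 17.70 to 18.17 in wild types. Red cell markers were lower in mutants for 6 of 6 genes (4 of 6 without replicate 2), none past the threshold, with a median ratio of −0.33 (−0.09 without replicate 2) and a summed log2 level of 18.77 to 19.80 in mutants and 19.20 to 19.96 in wild types. The part of these cells in the complex I ratios was not tested either. In these bulk samples fewer cells of a type and less RNA per cell cannot be told apart.

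The second question was whether the ratio of mutant over wild type was alike in males and females. None of the 36 members passed the test of that difference, where 0.140% of all items did, and none had an unadjusted p under 0.05, where 3.83% of all items did. The male minus female difference of the log2 ratio ran from −0.14 (Ndufa10) to 0.14 (Ndufa12) over the members, with a median of −0.02, 13 above 0 and 23 below, while median normalization turned this split to 26 above and 10 below. The smallest unadjusted p was 0.451. Standard errors were 0.174 to 0.205, and the outermost bounds of the members' 95% intervals were −0.57 (Ndufa10) and 0.58 (Ndufa7). With 2 pairs per sex, a difference inside a member's own interval was not excluded.

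The arrays also allowed male and female kidneys to be compared, with the mean of both channels of an array as the value, so that each sex had 2 arrays, each with 1 mutant and 1 wild type. Of the 36 members 18 passed an adjusted p of 0.05 as lower in males and 0 as higher. The mean was lower in males for 33 of 36 members, as it was for 60.1% of all items, while Ndufa1, Ndufa8 and Ndufv3, which were above 0, turned below 0 with arrays scaled to their medians only. Over all items 25.8% were called lower in males and 18.0% higher, and among the 6559 items within the members' range of mean intensity 28.0% were called lower. The median log2 difference, male minus female, was −0.27 over the members and −0.10 over all items. Among the 18 called members the level was 1.20-fold to 1.68-fold higher in females. Leaving out any 1 replicate left a lone array in its sex, which was then assumed to vary like the others. Fewer members were called in each of these fits than with all 4 arrays, and fewer of all items as well. Most of the 18 calls were lost when a female array (replicate 1 or 2) was left out. The members' median stayed between −0.30 and −0.24 in all of these fits. With arrays scaled to their medians only, the median over all items was −0.23, that over the members −0.59, and 34 members passed. The 25.8% above does not hold for that scaling. In it 39 of 39 measured subunits of complexes II to V and 11 of 21 assembly factors were called lower as well.

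**Figure D3:**
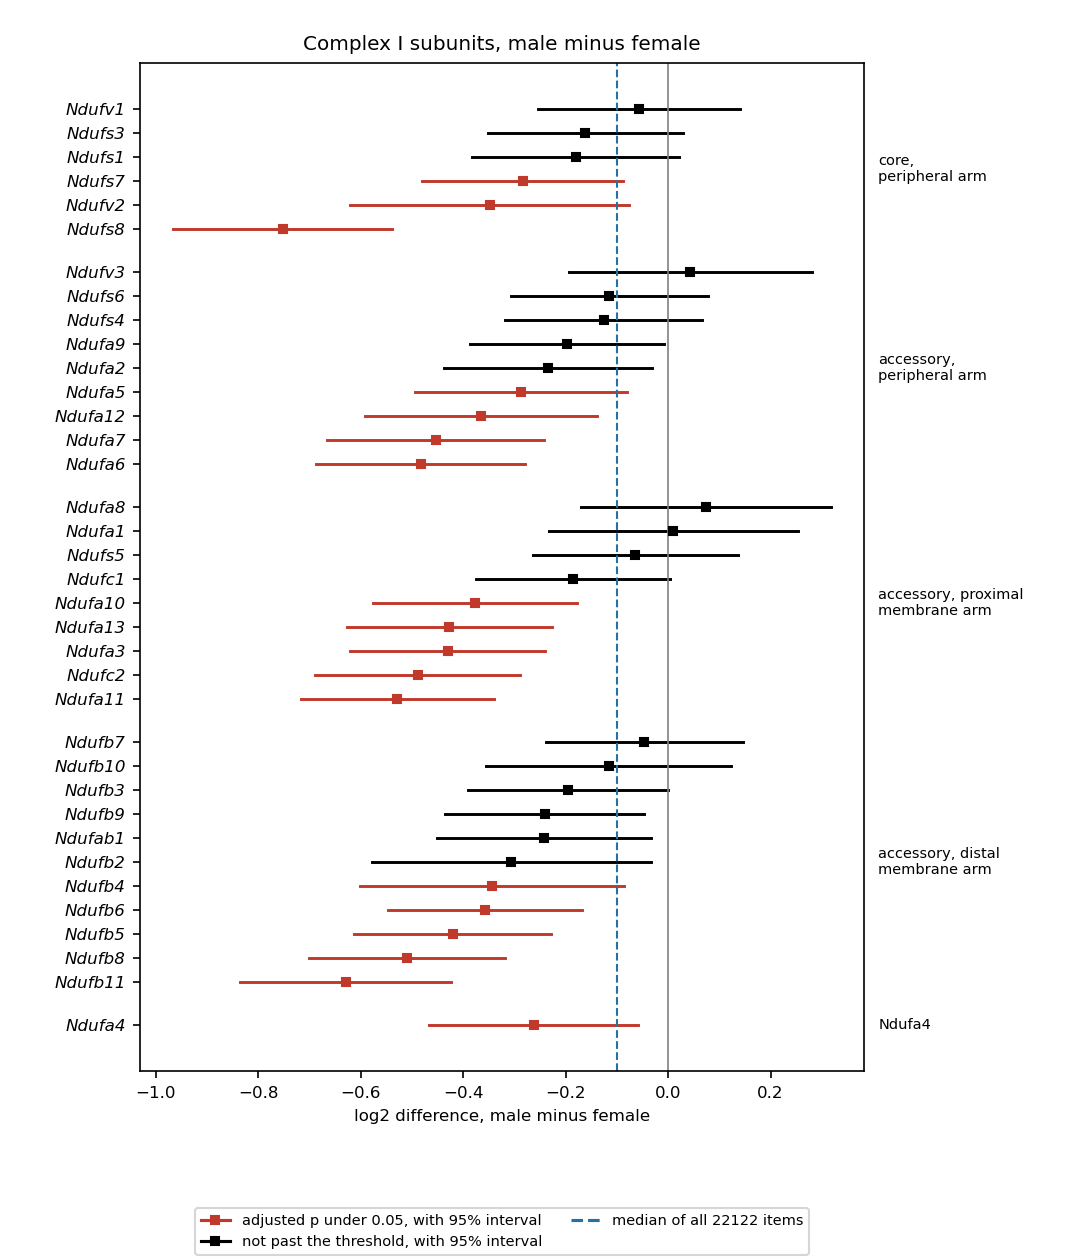
Log2 difference, male minus female (x axis), for the 36 members (y axis), grouped by place in the complex, with 95% intervals from 2 arrays per sex. Red members passed an adjusted p of 0.05, black ones did not, and the dashed line is the median of all items at −0.10. Called members run from −0.75 (Ndufs8) to −0.26 (Ndufa4), and Ndufa1, Ndufa8 and Ndufv3 lie above 0, but below 0 with arrays scaled to their medians only.

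Relative to the median of all items, a comparison chosen after the data had been seen, the members' median difference was −0.17 and 12 members were called lower: Ndufa3, Ndufa6, Ndufa7, Ndufa10, Ndufa11, Ndufa13, Ndufb5, Ndufb6, Ndufb8, Ndufb11, Ndufc2 and Ndufs8. These are the same 12 that were called in each of the 12 settings that used all 4 arrays. Those settings include this comparison itself, so no other member could have been called in all of them. In that scaling Ndufb7, Ndufs5 and Ndufv1 moved above 0 and 30 members stayed below.

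Of the 6 core members of the peripheral arm 3 were called lower in males, namely Ndufs8, Ndufv2 and Ndufs7. Ndufs8 had normalized log2 intensities of 12.35 and 12.79 in male mutants and 12.54 and 12.34 in male wild types. It had 13.20 and 13.53 in female mutants and 13.32 and 12.99 in female wild types. All 4 male samples lay below all 4 female samples, with means of 12.51 ± 0.212 in males and 13.26 ± 0.225 in females (SD, n = 4 samples each). The difference was −0.75 ± 0.0832 (SE, n = 4 arrays), a level in males of 0.594 times that in females (adjusted p = 0.00391), and Ndufs8 alone among the members was called in all 16 settings. Ndufv2, a cluster-carrying partner of Ndufv1, had −0.35 ± 0.106 (adjusted p = 0.0499), and Ndufs7 had −0.28 ± 0.0761 (adjusted p = 0.0355). Ndufv1 itself had −0.06 ± 0.0768 and Ndufs1 −0.18 ± 0.0788, neither past the threshold.

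**Figure D4:**
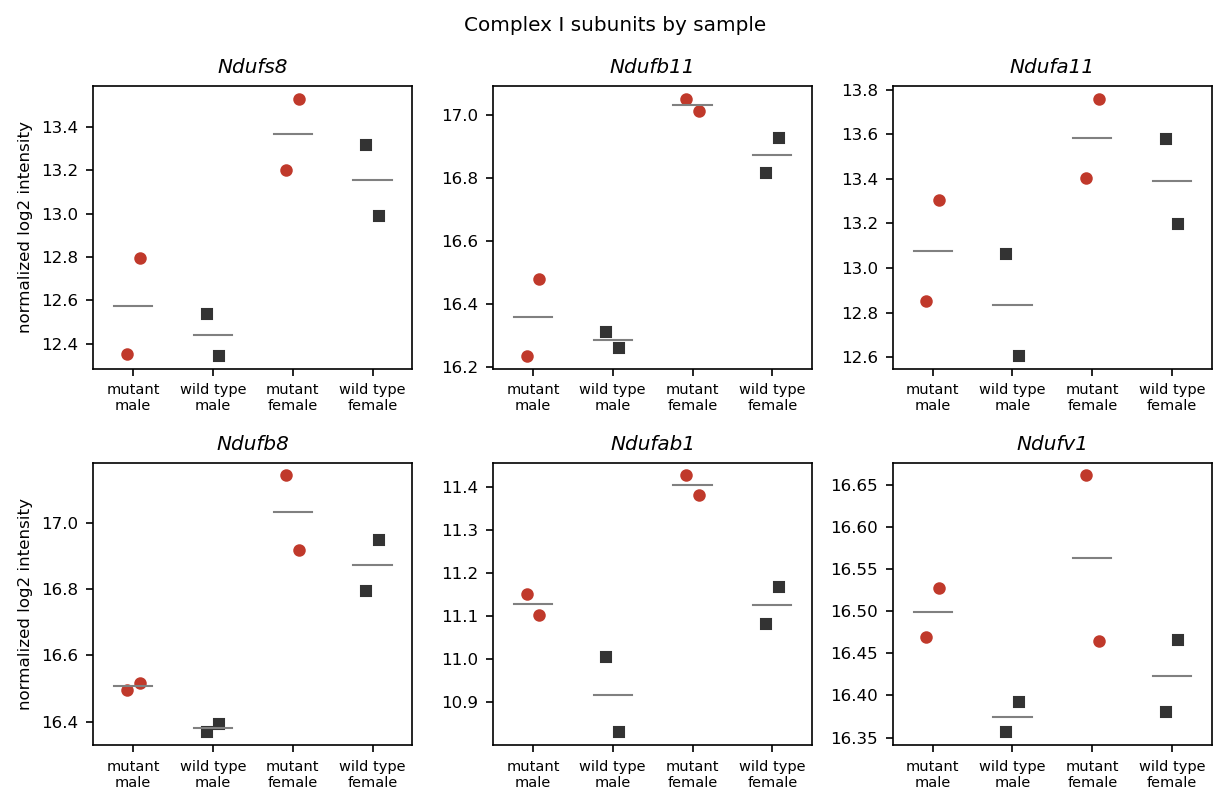
Normalized log2 intensity (y axis, a separate scale in each panel) of 6 members in the 8 samples, by sex and genotype (x axis), with mutants as red circles, wild types as black squares and group means as grey lines (n = 2 each). Both male groups lie below both female groups for Ndufs8, Ndufb11 and Ndufb8, while the highest male mutant of Ndufa11 reaches 13.30, above the lowest female at 13.20, and Ndufv1 overlaps between the sexes.

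Of the 9 accessory members of the peripheral arm 4 were called lower in males. Ndufa6, a subunit of the LYR family that holds an acyl carrier protein, had −0.48 ± 0.0794 (SE, n = 4 arrays, adjusted p = 0.00987), with 14.67 and 14.96 in male mutants, 14.89 and 14.78 in male wild types, 15.24 and 15.35 in female mutants and 15.33 and 15.31 in female wild types. The sexes did not overlap. Ndufa7 had −0.45 ± 0.0826 and Ndufa12, a small subunit near the electron-input end, had −0.36 ± 0.0881. Ndufa5 had −0.29 ± 0.0805, and its second probe gave −0.45. Ndufs4, Ndufs6 and Ndufv3, which sit at the electron-input end, had −0.13, −0.12 and 0.04 and were not called, and the second probe of Ndufv3 gave 0.12. Ndufa2 (−0.23) and Ndufa9 (−0.20) had non-overlapping sexes but did not pass.

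Of the 9 accessory members of the proximal membrane arm 5 were called lower in males. Ndufa11 had −0.53 ± 0.0734 (SE, n = 4 arrays, adjusted p = 0.00655), with 12.85 and 13.30 in male mutants and 13.06 and 12.61 in male wild types, against 13.41 and 13.76 in female mutants and 13.58 and 13.20 in female wild types. The highest male value exceeded the lowest female value. Ndufc2 had −0.49 ± 0.0778 (adjusted p = 0.00912), with 15.05 and 15.39 in male mutants, 15.12 and 14.88 in male wild types, 15.58 and 15.80 in female mutants and 15.55 and 15.46 in female wild types, without overlap. Ndufa3 and Ndufa13 each had −0.43 and Ndufa10 had −0.38, all called. Ndufa1, a single-pass membrane subunit encoded on the X chromosome, had 0.01 ± 0.0947, with an interval of −0.23 to 0.25. Ndufa8, a cysteine-rich subunit on the intermembrane side, had 0.07 ± 0.0949, and Ndufs5, a subunit of the same kind, had −0.06.

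Of the 11 members in the distal membrane arm 5 were called lower in males. Ndufb11, the other X-linked member, had 16.24 and 16.48 in male mutants and 16.31 and 16.26 in male wild types, against 17.05 and 17.01 in female mutants and 16.82 and 16.93 in female wild types. The sexes were clearly separate, and the difference was −0.63 ± 0.0800 (SE, n = 4 arrays, adjusted p = 0.0054). A far dimmer second probe of Ndufb11 gave −0.68. Ndufb8, whose product is widely used as a marker of assembled complex I, had 16.50 and 16.52 in male mutants, 16.37 and 16.39 in male wild types, 17.14 and 16.92 in female mutants and 16.79 and 16.95 in female wild types. Its difference was −0.51 ± 0.0744 (adjusted p = 0.00746). Ndufb5 had −0.42 from the probe used, but its second probe gave −0.06, so that call rests on 1 of 2 probes. Ndufb6 had −0.36 and Ndufb4 −0.34, and their second probes gave −0.38 and −0.32. Ndufab1, with −0.24 ± 0.0815 (adjusted p = 0.0649), and Ndufb9, another LYR subunit, with −0.24 ± 0.0756 (adjusted p = 0.0541), just missed the threshold, and Ndufb7 had −0.05.

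Ndufa4 had −0.26 ± 0.0797 (SE, n = 4 arrays, adjusted p = 0.0493), with overlapping sexes. In 21 of the 36 members all male samples lay below all female samples, where 25.0% of all items did. Of these 21, 15 were called and 6 were not, and 3 called members overlapped (Ndufa4, Ndufa11 and Ndufb6). The X-linked pair lay far apart, at −0.63 for Ndufb11 and 0.01 for Ndufa1. The NRF1 motif lay in the windows of 3 of the 18 called members and of 3 of the 15 uncalled members with a window.

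The sexes were also set side by side within each genotype. Within mutants the members' median difference was −0.28 with 35 of 36 lower in males, and within wild types it was −0.26 with 33 of 36 lower, 33 of them in both. The mutant and the wild type of a replicate share an array, so these are not independent. For Ndufs8 the male minus female difference of the genotype ratio was −0.08, with an interval of −0.49 to 0.34. Taken over samples, the members' median deviation from each gene's mean was −0.11 and −0.08 in male mutants and −0.12 and −0.20 in male wild types. It was 0.18 and 0.14 in female mutants and 0.07 and 0.10 in female wild types, while that of all items stayed between −0.04 and 0.04 in the 8 samples.

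The other respiratory lists were compared between the sexes in the same way, beside 25.8% of all items called lower in males and 18.0% called higher. In complexes II to V 39 of 39 members were lower in males (37 of 39 relative to the median of all items) and 21 were called, with a median of −0.28. Among the 21 were Cox6c (−0.63) and Cox4i1 (−0.53) of cytochrome c oxidase, Uqcrh (−0.53) of complex III, Atp5l (−0.53) of the ATP synthase and Sdhb (−0.39) of complex II. Without replicates 1 to 4 in turn the median of complexes II to V was −0.30, −0.27, −0.27 and −0.30. That of assembly factors was −0.07, −0.06, −0.11 and −0.04. In each of these fits fewer genes of both lists were called lower, and fewer of all items were called, than with all 4 arrays. Among 21 assembly factors of complex I 5 were called lower and 1 higher, with a median of −0.06, which was 0.04 relative to the median of all items and −0.34 with arrays scaled to their medians only. Timmdc1, a membrane arm assembly factor, had −1.42 ± 0.156 (SE, n = 4 arrays, adjusted p = 0.00384). The other lower ones were Tmem126b (−0.54), Ndufaf8 (−0.53), Nubpl (−0.40), which delivers iron-sulfur clusters, and Tmem70 (−0.31). Lyrm2, a LYR protein linked to complex I, was higher in males at 0.89 ± 0.0743 (adjusted p = 0.00189). Of the 4 paralogs and supercomplex factors Ndufa4l2, a paralog of Ndufa4, had −0.60 and Cox7a2l, a supercomplex factor, had −0.30, both called. Of 11 regulators Yy1 was called lower (−0.38) and Ppargc1a, a coactivator of mitochondrial genes, was called higher (0.44), with a median of 0.01, which was −0.25 with arrays scaled to their medians only. The difference between these lists was not tested.

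**Figure D5:**
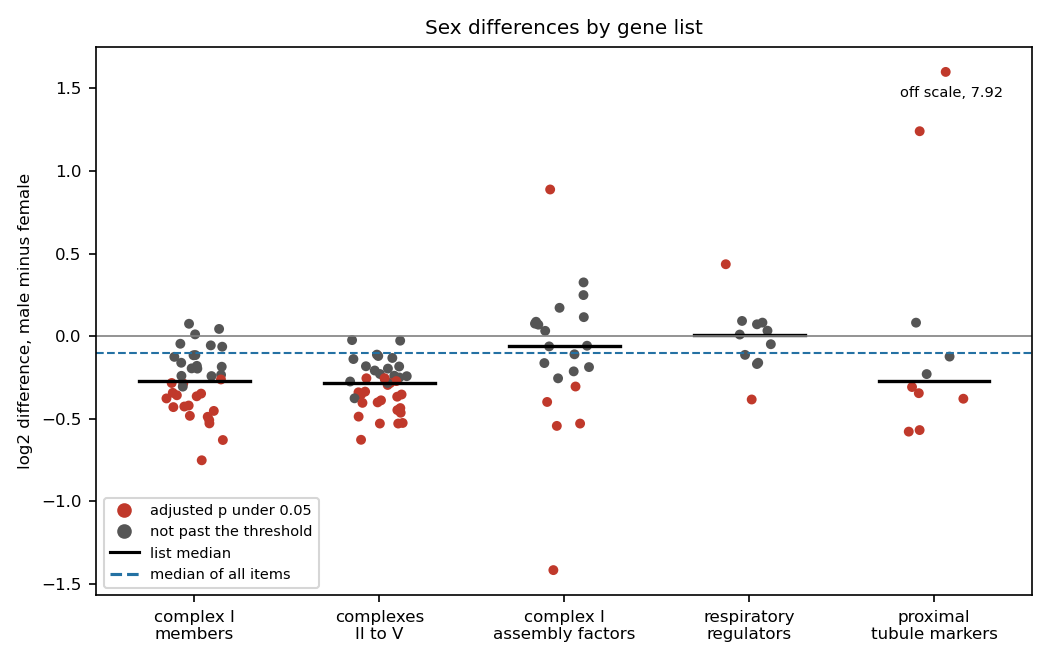
Log2 difference, male minus female (y axis), of single genes in 5 lists (x axis), with black bars for the list medians, red points for an adjusted p under 0.05 and a dashed line for the median of all items at −0.10. The medians are −0.27 for the complex I members, −0.28 for complexes II to V, −0.06 for assembly factors, 0.01 for regulators and −0.27 for proximal tubule markers, where Slc7a13 at 7.92 is drawn at the top edge.

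Markers of kidney cell types moved with sex as well, and their counts stand beside 25.8% of all items called lower in males and 18.0% called higher. Of 10 proximal tubule markers 5 were called lower and 2 higher in males (Slc7a13 at 7.92 and Slc22a6 at 1.24), with a median of −0.27, and Slc34a1 had 0.08. Their summed log2 level was 20.02 to 20.29 in males and 20.04 to 20.48 in females. Markers of the thick ascending limb and distal convoluted tubule had a median of −0.29 (5 of 9 called lower and 1 higher) and a summed log2 level of 17.70 to 18.13 in males and 17.81 to 18.44 in females. Without replicates 1 to 4 in turn the median of the proximal tubule markers was −0.26, −0.27, −0.30 and −0.24. That of the thick ascending limb list was −0.34, −0.30, −0.26 and −0.41. Fewer genes of both lists were called lower without replicate 1 or 2. Podocyte and endothelial markers had a median of −0.46 (3 of 8 called lower) and a summed log2 level of 13.89 to 14.32 in males and 14.51 to 14.74 in females, without overlap. Their median was −0.39, −0.41, −0.54 and −0.31 without replicates 1 to 4 in turn, and fewer were called lower without replicate 1 or 2. Of 6 immune cell markers 5 were lower in males, with a median of −0.22, 2 called lower (Adgre1 at −0.65 and Cd3e at −0.41) and 1 higher (Itgam at 2.32). Their median was −0.11, −0.34, −0.13 and −0.31 without replicates 1 to 4 in turn, and fewer were called lower without replicate 1 or 2. The summed log2 level of that list, 16.26 to 16.70 in males and 14.17 to 14.55 in females, therefore goes against its median and follows Itgam. Of 6 red cell markers 6 were lower in males and 4 were called, with a median of −0.50 and a summed log2 level of 18.77 to 19.44 in males and 18.79 to 19.96 in females. Their median was −0.38, −0.63, −0.58 and −0.47 without replicates 1 to 4 in turn, and each of these fits called fewer of them. Brown fat markers summed to 14.53 to 16.44 in males and 15.39 to 16.32 in females. The part of cell composition in the sex differences of complex I was not tested.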

How the data were processed

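Kidney RNA of 4 Pus1 mutant and 4 wild-type mice was hybridised to 4 dual-channel Agilent arrays, after labelling of 200 ng with the Low Input Quick Amp kit per the labels. Per the submitters' processing notes the authors used Agilent Feature Extraction 10.7.3.1. Its deposited intensity values give the median of a spot and of the background around it, beside a processed intensity already corrected for background and dye. The deposited log2 values of the series table were made by the authors in a way not given in the sources used here; they served only as an alternative. The file headers name build mm9.

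Background was removed with normexp (offset 50) in limma 3.58.1 under R 4.3.3 with the data.table package, version 1.17.8; ratios were normalized by loess within arrays, with control spots and outlier spots given no weight, and channel levels by Aquantile. Spots were averaged per probe, probes well above background in at least 4 of 8 channels were kept, and a gene was its brightest probe. Names came through accessions in RefSeq's GRCm38.p6 annotation; 7838 items without a symbol stayed as accessions. Levels are normalized log2 intensities and are not compared between probes.

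Genotype was tested with limma on the 4 log2 ratios with a dye term (2 residual degrees of freedom). Sex by genotype added the male minus female difference of the ratio (1 residual degree of freedom). Sex was tested on the mean log2 intensity of the 4 arrays (2 residual degrees of freedom). All p-values are 2-sided and adjusted by Benjamini-Hochberg over 22122 items. The pairing of a mutant with a wild type comes from their shared array. Each sample is 1 mouse per the labels. Calculations were tested on simulated data. The members, gene lists and markers were chosen with earlier results of these data known. All 36 members may be named, and from other lists those past the threshold and defining markers. Alternatives were processed intensities, the deposited table, another offset, median normalization, other filters, the mean of a gene's probes, other scalings between arrays, a separate-channel fit, fits without the dye term or the replicate block, and leaving out each replicate. Python 3.11.15 and matplotlib 3.10.9 drew the figures.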

Additional observations from a re-analysis of the deposited data

How the results depend on the processing

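No member passed for genotype or for sex by genotype in any setting run, and the members' genotype median lay between 0.02 (median normalization) and 0.10 (without replicate 3). Of 504 member values for genotype 32 changed sign, none of them past the threshold, and 21 of 36 members were higher in mutants in all 15 settings. Over all items the count for genotype, 6 as reported, was 0 with processed intensities (996 at an unadjusted p under 0.05), 0 with the deposited table (1024), 10 with median normalization, 2 with no replicate block, where no member passed either, and 1 to 3 leaving out a replicate. The count for sex by genotype, 31 as reported, was 0 with processed intensities (977 unadjusted), an offset of 16 (855), the deposited table (925) and no dye term (355), 223 with median normalization and 66 with no filter. The members' median for it was −0.126 to 0.110 leaving out a replicate, with no test.

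For sex, leaving out a replicate gave 2543 to 8549 items, 1 to 15 members called lower and a members' median of −0.296 to −0.241, and each lone array was assumed to vary like the others. With array medians only 34 members were called, as were 39 of 39 measured subunits of complexes II to V. The members' median was −0.591 there, and Ndufa1 turned to −0.349. Relative to the median of all items the members' median was −0.173. The causes of these changes were not tested. Of 540 member values for sex 437 kept their direction and side of the threshold, 67 lost and 24 gained the call. Another 11 changed sign without a call, and 1 changed sign and was called (Ndufa1 with array medians only). The members were all well above background, and each sex had only 2 arrays.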
